A study of Mus musculus with 6 samples.

Results

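The SMOC and SPARC family of secreted matricellular proteins was examined in 393P, a mouse lung adenocarcinoma (LUAD) line of epithelial type, with and without an expression vector for ZEB1, a transcription factor known to drive epithelial-to-mesenchymal transition (EMT). The 8 genes were Smoc1, Smoc2, Sparc, Sparcl1, Spock1, Spock2, Spock3 and Fstl1, out of 24214 RefSeq features counted. They were found by gene symbol, and the family was chosen from the difference between 393P_ZEB1 and 393P_vector in these same samples, so the counts of its members in that contrast are given as a description, without a test. Total RNA was sequenced from 3 samples of 393P transfected with an empty vector (393P_vector) and 3 samples transfected with a ZEB1 expression vector (393P_ZEB1). All 6 samples were C57BL/6 KP lung cancer cells, grown in RPMI-1640 with 10% FCS. The transfectants were stable populations selected with a drug, derived from 1 line. The labels do not say whether the samples came from separate transfections or cultures, so the spread between them may be technical.

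Matricellular proteins are secreted into the extracellular matrix, where they modulate how cells meet matrix, growth factors and proteases rather than serve as scaffold. SPARC and its relatives share a follistatin-like domain and, in most members, a calcium-binding extracellular module. SPARC itself binds collagen and is a long-known product of mesenchymal and matrix-remodeling cells, SMOC proteins can antagonize bone morphogenetic protein (BMP) signaling, testicans (the Spock genes) are proteoglycans, and FSTL1 is a secreted glycoprotein that binds BMPs.

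Total counts ranged from 57844355 to 79158012 in 393P_vector and from 54442450 to 61251074 in 393P_ZEB1, and 393P_vector replicate 3 was the deepest. Values are in CPM (counts relative to a library size adjusted by TMM) or, to compare genes with each other, in RPKM (the same divided by the exon length in kilobases). A level of 3 counts, used as a floor, corresponded to between 0.0361 and 0.0561 CPM. Across all genes, 13892 passed the filter on low counts and were fitted with edgeR, with a median log2 fold change of -0.02. At a Benjamini-Hochberg adjusted p below 0.05, 2539 of them (18.3%) were higher and 2679 (19.3%) lower in 393P_ZEB1. Zeb1 stood at 21.2, 22.0 and 21.4 CPM in 393P_vector and at 54.9, 48.9 and 51.3 CPM in 393P_ZEB1, and whether the transgene was counted with it is not given in the sources used here. The epithelial cadherin gene Cdh1 fell by 4.09 on the log2 scale (edgeR adjusted p = 2.3e-05). Vim, which encodes the mesenchymal filament vimentin, was higher by 0.41 (edgeR adjusted p = 0.026), a call that was lost in 4 of the 6 fits that left out a sample, with the highest adjusted p, 0.10, without 393P_ZEB1 replicate 3. The lung lineage markers Nkx2-1 and Sftpc did not exceed 4 counts in any sample, whereas the simple keratin genes Krt8 and Krt18 were abundant in all 6 samples, although they fell by 0.61 and 0.77 (edgeR adjusted p = 0.0036 and 0.0011). The epithelial adhesion gene Epcam fell by 6.53 (edgeR adjusted p = 3.3e-05).

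Smoc2 was the member with the widest gap between the groups. Its counts were 30, 24 and 39 in the 393P_vector samples and 4971, 5072 and 5735 in the 393P_ZEB1 samples. In 393P_vector the gene was above the floor of 3 counts but low in every sample, and in 393P_ZEB1 it was high in every sample, with no overlap. The mean level was 0.469 ± 0.061 CPM (SD, n = 3) in 393P_vector and 92.7 ± 1.33 CPM (SD, n = 3) in 393P_ZEB1, a ratio of 198 and a fitted log2 fold change of 7.62 (SE 0.15). Smoc2 (NM_022315) lies on chromosome 17 of GRCm38, plus strand, from 14279506 to 14404790, with 13 exons. Only 1 of these exons had more than 10 reads in each 393P_vector sample, and all 13 had more than 10 reads in each 393P_ZEB1 sample. The reads of 393P_ZEB1 were therefore spread along the whole annotated transcript. Among all features, 47.3% lay below Smoc2 in mean RPKM in 393P_vector and 89.1% in 393P_ZEB1.

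Sparc, the collagen-binding founder of the family, was abundant in both groups. Its counts were 15834, 16596 and 18326 in 393P_vector and 24551, 24294 and 24888 in 393P_ZEB1. Scaled to the library, these were 279.7, 282 and 221 CPM against 459, 437 and 408 CPM, so 393P_vector replicate 3 was the lowest and the groups did not overlap. The means of 261 ± 34.8 and 435 ± 25.7 CPM (SD, n = 3 each) gave a ratio of 1.67 and a log2 fold change of 0.74 (SE 0.13). All 10 exons of Sparc (NM_009242, GRCm38 chromosome 11, minus strand, 55394501 to 55420080) had more than 10 reads in every sample. The gene exceeded 97.7% of all features in mean RPKM in 393P_vector and 98.8% in 393P_ZEB1.

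Fstl1 stood near the floor in 393P_vector and at a low but countable level in 393P_ZEB1. It had 12, 8 and 8 counts in 393P_vector and 204, 172 and 208 counts in 393P_ZEB1, again without overlap. Mean levels were 0.148 ± 0.0588 CPM and 3.44 ± 0.359 CPM (SD, n = 3 each), with a ratio of 23.2 and a log2 fold change of 4.56 (SE 0.30). No exon of Fstl1 (NM_008047, GRCm38 chromosome 16, plus strand, 37777055 to 37836516, 11 exons) had more than 10 reads in 393P_vector, and 1, 3 and 5 exons did in the 393P_ZEB1 samples. Fstl1 passed the filter on low counts only through its 393P_ZEB1 samples, so a difference was a condition of its being fitted.

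The testican genes were near the floor in both groups, with lower mean CPM in 393P_ZEB1. With so few counts, no shared direction of these genes is read from them. Spock2 had 25, 21 and 22 counts in 393P_vector and 10, 7 and 14 counts in 393P_ZEB1. The 3 values of 393P_vector, in CPM, lay above those of 393P_ZEB1, although 0.265 in 393P_vector replicate 3 was close to 0.229 in 393P_ZEB1 replicate 3. Mean levels were 0.354 ± 0.0884 CPM and 0.181 ± 0.0519 CPM (SD, n = 3 each), and the log2 fold change was -0.94 (SE 0.36), given without a test. Spock2 (NM_052994, GRCm38 chromosome 10, plus strand, 60106257 to 60133913, 11 exons) passed the filter only through its 393P_vector samples. Spock1 (chromosome 13, 57421195 to 57908332) had 8, 11 and 12 counts in 393P_vector against 5, 4 and 7. Spock3 (chromosome 8, 62951232 to 63357096) had 6 counts in each 393P_vector sample against 2, 2 and 4. Neither gene passed the filter, and the CPM of both did not overlap between the groups.

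The remaining relatives were barely counted. Smoc1 (chromosome 12, 81026808 to 81186414), the paralog of Smoc2, had 6, 2 and 4 counts in 393P_vector and 15, 9 and 7 in 393P_ZEB1, 12 against 31 counts in all. Its mean level was 0.0627 CPM in 393P_vector and 0.186 CPM in 393P_ZEB1. The groups nearly met, at 0.106 CPM in 393P_vector replicate 1 and 0.115 CPM in 393P_ZEB1 replicate 3. With so few counts, no shared direction of Smoc1 and Smoc2 is read from them. Per length they were far apart in 393P_ZEB1, with mean levels of 0.0533 RPKM for Smoc1 and 32.9 RPKM for Smoc2. Sparcl1 (chromosome 5, 104079109 to 104114088), the closest relative of Sparc, had 4, 11 and 3 counts in 393P_vector and 5, 3 and 5 in 393P_ZEB1, and was the only member whose groups overlapped. At this depth no difference in Sparcl1 could be shown.

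Of the 8 members, 8 had more than 3 counts in at least 1 sample and 4 passed the filter on low counts. Among these 4, 3 were past the edgeR threshold on the higher side and 0 on the lower side, where 18.3% and 19.3% of all genes were, and since the family was chosen on this contrast nothing is read from the counts. For 7 of the 8 members the CPM of the groups did not overlap, as was the case for 43.8% of the 18529 features with more than 3 counts in at least 1 sample. This count too comes from the contrast that chose the family, and for most of these members it rests on few reads in at least 1 group.

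**Figure D1:**
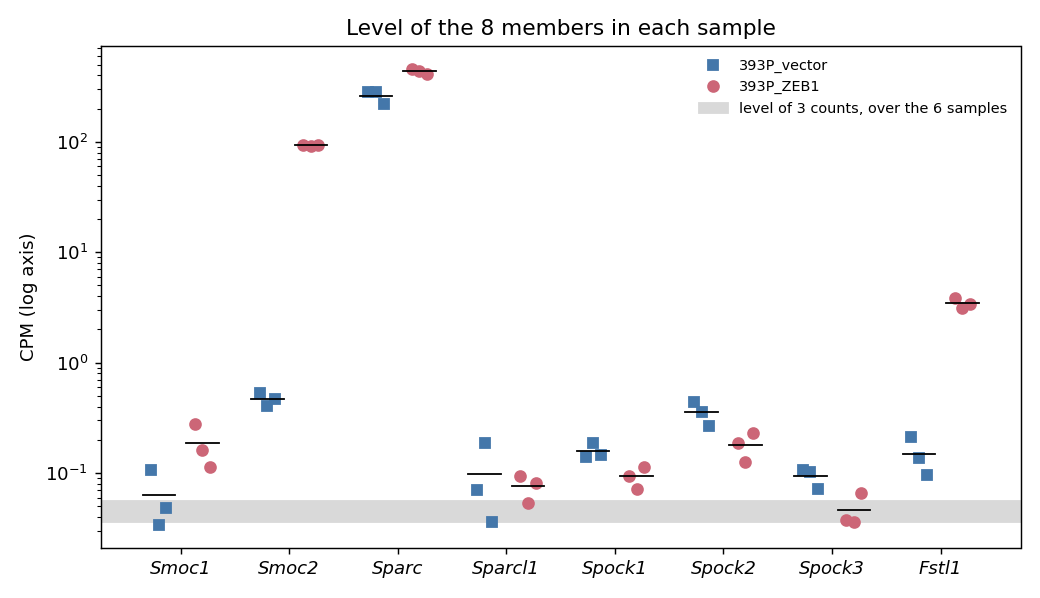
Level of each of the 8 genes in CPM on a log axis, with 1 point per sample for 393P_vector and 393P_ZEB1 (n = 3 each) a bar at each group mean and a grey band at the level of 3 counts. Smoc2 stands at 0.469 and 92.7 CPM and Fstl1 at 0.148 and 3.44 CPM, Sparc is high in both groups, and the other 5 genes lie below 1 CPM in every sample.

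Compared per exon length, Sparc headed the family in every sample. In 393P_vector its RPKM was 114 ± 15.2 (SD, n = 3), followed by Smoc2 at 0.166, Spock2 at 0.0908 and Fstl1 at 0.0412. Sparc was above Smoc2, Smoc2 above Spock2, and Spock2 above Fstl1 in all pairs of 393P_vector samples. Sparcl1, Spock3, Spock1 and Smoc1 followed, with ranges that overlapped from Fstl1 down. In 393P_ZEB1 the order began with Sparc at 190 ± 11.2 and Smoc2 at 32.9 ± 0.471 RPKM (SD, n = 3 each), and Fstl1, at 0.956, followed in place of Spock2. Each of these lay above the next in all samples, whereas Smoc1 and Spock2, which came next, overlapped.

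The summed RPKM of the 8 genes was 122.7, 123.6 and 96.7 in 393P_vector and 234.7, 224.4 and 212.5 in 393P_ZEB1, without overlap. In 393P_vector, Sparc made up 99.65% of that sum and Smoc2 0.148%. In 393P_ZEB1, the share of Sparc was 84.8% ± 0.865 (SD, n = 3) and that of Smoc2 was 14.0%, 14.4% and 15.7% in the 3 samples. Sparc exceeded Smoc2 per length by a factor of 693 ± 142 in 393P_vector and of 5.78 ± 0.384 in 393P_ZEB1 (SD, n = 3 each). The share of Fstl1 was 0.0354% in 393P_vector and 0.427% in 393P_ZEB1. In bulk samples, a higher level in every cell and a larger fraction of cells that express a gene cannot be told apart.

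**Figure D2:**
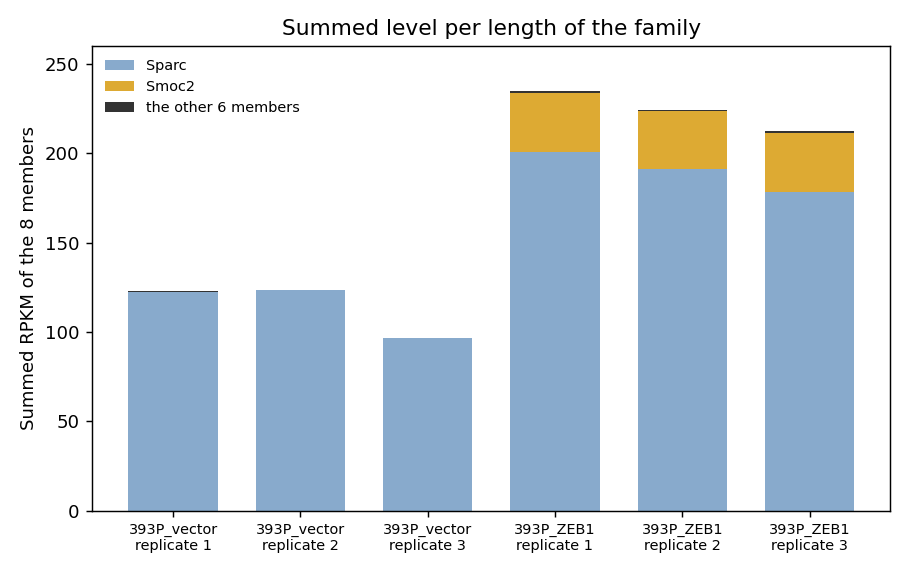
Summed RPKM of the 8 members, with 1 stacked bar per sample divided into Sparc, Smoc2 and the other 6 members. The bars reach 96.7 to 123.6 in 393P_vector, almost all of it Sparc, and 212.5 to 234.7 in 393P_ZEB1, where Smoc2 takes between 14.0% and 15.7%.

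The genes whose profile over the 6 samples was most like that of Smoc2 were ranked by the root mean square difference of log2(CPM + 0.1), each profile centered on its own 393P_vector mean. The closest 5 were Ror2 at 0.18, Emb at 0.51, Shc2 at 0.56, Slc1a3 at 0.63 and Itga1 at 0.73 on the log2 scale. Ror2, which encodes a receptor tyrosine kinase for WNT5A, had a mean of 0.158 CPM in 393P_vector and 36.5 CPM in 393P_ZEB1. Emb, which encodes the adhesion glycoprotein embigin, had 0.349 and 44.9 CPM, and Itga1, the collagen-binding integrin alpha-1, had 0.299 and 32.0 CPM. Since this profile is largely the contrast that chose the family, the list is a description.

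The relation of the members to their place in the genome was examined next. The median log2 fold change of the 675 tested genes of chromosome 17 was -0.43, against which Smoc2 stood 8.05 higher. Chromosome 11 had a median of 0.27, and Sparc, with a log2 fold change of 0.74, stood 0.47 above that median. For Fstl1 on chromosome 16, with a median of 0.25, the distance was 4.31, and for Spock2 on chromosome 10, with a median of -0.30, it was -0.64.

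The nearest tested genes around Smoc2 were mostly lower in 393P_ZEB1. Dact2, which encodes a Dishevelled-binding antagonist and ends 75.7 kb before Smoc2, had 411, 433 and 430 counts in 393P_vector and 1, 7 and 1 counts in 393P_ZEB1. It fell by 6.90 on the log2 scale (SE 0.50, edgeR adjusted p = 3.1e-05), almost as far as Smoc2 stood in the opposite direction. Dact2 passed the filter on low counts only through its 393P_vector samples. Thbs2, the gene of the matricellular protein thrombospondin-2 and 260.7 kb beyond Smoc2, had 74, 77 and 111 counts in 393P_vector and 12, 17 and 29 in 393P_ZEB1. It fell by 1.96 (SE 0.29, edgeR adjusted p = 0.0015). Both calls held in every fit that left out a sample.

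Farther out, Tcte2 was lower by 1.32 (edgeR adjusted p = 0.022) and Mllt4, which encodes the junction protein afadin, was lower by 0.63 (edgeR adjusted p = 0.014), whereas LOC106740 was higher by 0.53 (edgeR adjusted p = 0.043). These 3 calls were lost when any 1 of the 393P_ZEB1 samples was left out, with adjusted p between 0.0501 and 0.0668 for Mllt4, between 0.061 and 0.0885 for Tcte2 and between 0.0909 and 0.132 for LOC106740. LOC106740 also lost its call without 393P_vector replicate 1 or 2, with adjusted p of 0.106 and 0.123. The edgeR adjusted p of 1600012H06Rik was 0.25. In all, 4 of these 6 neighbors were lower and 1 higher, where 19.3% and 18.3% of all genes were. The shares on chromosome 17 itself, where the median log2 fold change was -0.43, were not computed.

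Around the other members, the genes named were chosen after their values were seen. Beside Sparc, 2 of 6 neighbors were lower and 0 higher, namely Fat2, which encodes an atypical cadherin and fell by 2.59 (edgeR adjusted p = 5.3e-06), and Gm2a, a lysosomal activator protein gene, which fell by 0.99 (edgeR adjusted p = 0.00034). Beside Sparcl1, which lies next to a cluster of secreted phosphoprotein genes, 3 of 6 neighbors were higher and 1 lower. Among them, Spp1 (osteopontin) rose by 2.14 (edgeR adjusted p = 0.00026), while Sparcl1 itself was barely counted. Beside Spock3, 1 of 6 neighbors was higher and 3 lower. The numbers higher and lower were 0 and 0 for Smoc1, 0 and 1 for Spock1, 0 and 2 for Spock2, and 1 and 0 for Fstl1. Some of these calls were lost when 1 sample was left out. Over all members, 39.6% of the 48 neighboring genes were past the threshold in either direction, close to the 37.6% of all tested genes, and with 5 neighbors per side the share was 33.75%.

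**Figure D3:**
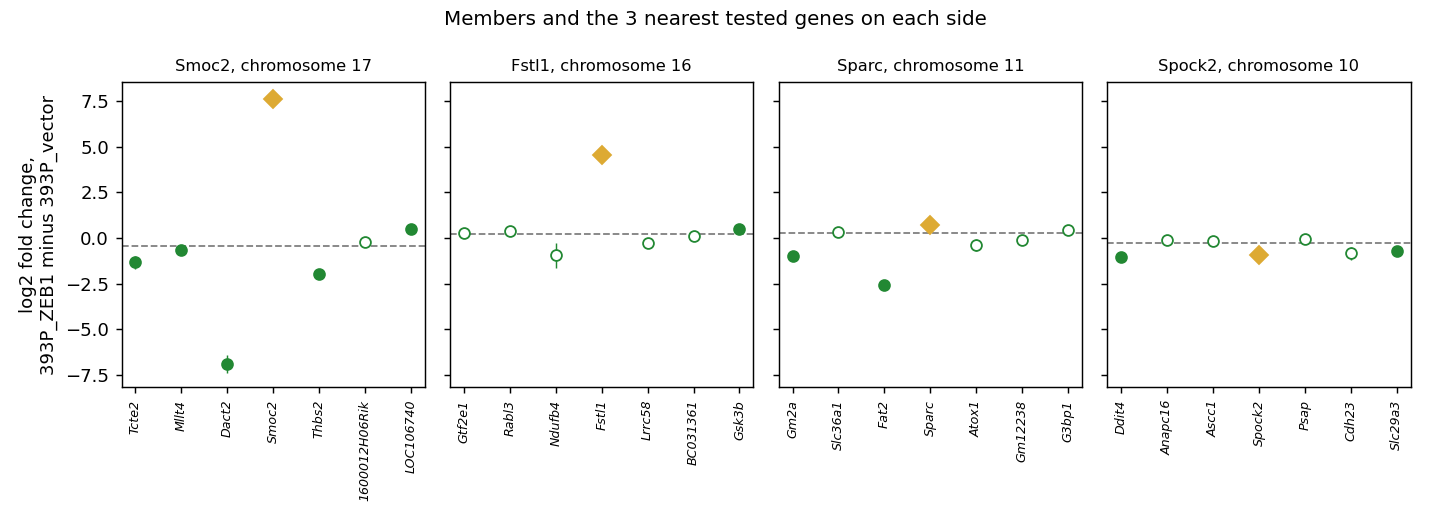
Log2 fold change, 393P_ZEB1 minus 393P_vector, of Smoc2, Fstl1, Sparc and Spock2 and the 3 tested genes on each side of them, in the order of their position, with SE bars. Diamonds are members, filled circles are neighbors with an adjusted p below 0.05, open circles are other neighbors and the dashed line is the median of the member's chromosome, and Smoc2 at 7.62 sits beside Dact2 at -6.90.

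Sequence features were then described for the members, because ZEB1 is known to repress the miR-200 family, whose seeds (bases 2 to 8) are shown in capitals here to define the sites that were searched. The mature sequences are from RefSeq.
mmu-miR-200b-3p: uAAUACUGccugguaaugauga
mmu-miR-200c-3p: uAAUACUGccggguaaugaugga
mmu-miR-429-3p: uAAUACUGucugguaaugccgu
mmu-miR-200a-3p: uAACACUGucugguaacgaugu
mmu-miR-141-3p: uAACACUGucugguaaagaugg
The first 3 share the seed whose site reads CAGTATT in a transcript, and the last 2 share the seed whose site reads CAGTGTT.

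A 3′ UTR in GENCODE M21 was found for 8 of 8 members and for 12005 tested genes, of which 15.7% held CAGTATT and 21.0% held CAGTGTT on the transcript strand. For each gene, only its longest protein-coding transcript with a 3′ UTR was searched, so other isoforms are not covered. CAGTATT was in 0 of the 8 members, and CAGTGTT was in 1, Spock2. The 3′ UTRs of Smoc2, Sparc and Fstl1, with lengths of 1278, 1085 and 2588 bases, held neither site. The single match, with the site in capitals, lay at chr10:60134482-60134488 on the plus strand of GRCm38, at base 3001 of a 3′ UTR of 3717 bases and 569 bases beyond the last base of the counted gene interval.
Spock2 3′ UTR window: cttaccccCAGTGTTccacagga

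The genes that work with the family were described through 5 lists of 71 genes in all, of which 63 were tested. In these lists 17 genes rose and 14 fell, where 18.3% and 19.3% of all tested genes did. Leaving out 393P_vector replicate 3 gave 21 higher and 23 lower. The lists were written with earlier results of these data known.

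Among 9 other genes with a follistatin domain, 7 were tested, 2 rose and 2 fell, with a median log2 fold change of 0.22 against -0.02 over all genes. Fst encodes follistatin, which binds and neutralizes activins. Its levels were 5.51, 3.79 and 2.89 CPM in 393P_vector and 151, 129 and 108 CPM in 393P_ZEB1, and it rose by 5.0 (SE 0.27, edgeR adjusted p = 7.9e-06). Igfbp7, the gene of a secreted IGF-binding protein, rose by 3.09 (SE 0.33, edgeR adjusted p = 0.00025). Fstl3, a follistatin-like activin antagonist gene, fell by 1.07 (SE 0.18, edgeR adjusted p = 0.0027). Agrn, which encodes the basement membrane proteoglycan agrin, also fell by 1.07 (SE 0.20, edgeR adjusted p = 0.0041). Fst and Fstl3, which both encode activin antagonists, thus changed in opposite directions.

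The other matricellular genes were divided in direction. Of 18, 14 were tested, 4 rose and 4 fell, and the median was -0.09. Tnr (tenascin-R) rose by 4.99 from 0.109 to 3.58 CPM (edgeR adjusted p = 1.4e-05) and Wisp2, a CCN family gene, rose by 4.74 from 0.133 to 3.65 CPM (edgeR adjusted p = 8.6e-06). Nov, a further CCN family gene, rose by 2.42 (edgeR adjusted p = 0.00024). Tnxb (tenascin-X) fell by 2.73 (edgeR adjusted p = 4.8e-05), from 2.97 to 0.444 CPM. The abundant Thbs1 (thrombospondin-1), added after its values were seen, had a log2 fold change of 0.04 (edgeR adjusted p = 0.83).

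Of 17 genes for collagens and for cell-surface partners of SPARC or FSTL1, all tested, 5 rose and 2 fell, with a median of -0.12. Leaving out 393P_vector replicate 3 gave 7 lower genes. Col3a1, a fibrillar collagen gene, rose by 3.75, from 0.119 to 1.60 CPM (edgeR adjusted p = 9.6e-05). It passed the filter on low counts only through its 393P_ZEB1 samples. The other collagen genes of the list were added after their values were seen. Col1a1, Col1a2, Col4a1, Col4a2, Col5a1 and Col5a2 had log2 fold changes from -1.24 to -0.25, none past the threshold. Without 393P_vector replicate 3, Col1a1, Col4a1, Col4a2 and Col5a1 were called lower. Col1a1 (edgeR adjusted p = 0.0507 in the main fit) was also called lower with the DESeq2 Wald test (adjusted p = 0.024). The same held with no filter on low counts and with the replicate block (edgeR adjusted p of 0.043 and 0.031). The most abundant of them, Col4a1, was at 930 CPM in 393P_vector and 780 CPM in 393P_ZEB1. Vcam1, a counter-receptor of SPARC on the cell surface, was at 47.8, 43.3 and 50.4 CPM in 393P_vector and at 163, 172 and 164 CPM in 393P_ZEB1 and rose by 1.82 (edgeR adjusted p = 8.3e-06). Cd14, a pattern-recognition co-receptor gene, rose by 1.77 (edgeR adjusted p = 9.2e-06), and the integrin gene Itgb5 rose by 1.27 (edgeR adjusted p = 8.9e-05). Itgb1, the gene of the integrin chain through which SPARC is known to act and chosen here after its values were seen, differed by -0.03 (edgeR adjusted p = 0.86).

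The BMP and activin pathway, which SMOC proteins and FSTL1 are known to touch, had 20 genes, all tested, of which 5 rose and 4 fell, with a median of 0.08. Without 393P_vector replicate 3, 8 rose and 5 fell. Among the ligands, Inhbb, the gene of the activin B subunit, was at 48.2, 53.9 and 42.3 CPM in 393P_vector and at 0.243, 0.396 and 0.164 CPM in 393P_ZEB1. Every 393P_ZEB1 sample was far below the lowest 393P_vector sample. It fell by 7.49 (SE 0.28, edgeR adjusted p = 1.7e-06), to near the floor in 393P_ZEB1. The activin A subunit gene Inhba, named after its values were seen, went the other way, from 27.7 to 133 CPM, a rise of 2.26 (edgeR adjusted p = 1.4e-05). Bmp2 rose by 3.92 (edgeR adjusted p = 6.1e-06), from 0.361 to 5.51 CPM.

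Among the secreted BMP antagonists, Grem1 (gremlin) rose by 3.62 (edgeR adjusted p = 3.9e-05), from 0.253 to 3.17 CPM, and Nog (noggin) fell by 3.61 (edgeR adjusted p = 0.00042), from 0.805 to 0.0637 CPM, with 4, 1 and 6 counts left in 393P_ZEB1. Grem1 passed the filter on low counts only through its 393P_ZEB1 samples, and Nog only through its 393P_vector samples. Chrd, a further antagonist gene, added after its values were seen, had a log2 fold change of -0.39 (edgeR adjusted p = 0.43). Grem1 and Nog thus went in opposite directions, while Smoc2 counts were higher in 393P_ZEB1. Of the BMP target genes of the list, named after their values were seen, only Id2 was called in the main fit. Differences between these genes were not tested. Smad6 and Smad7 had log2 fold changes of 0.16 and 0.30 (edgeR adjusted p = 0.69 and 0.15). Id1 was at 63.0 and 63.8 CPM (log2 fold change 0.02, edgeR adjusted p = 0.96). Id2 rose by 0.74 (edgeR adjusted p = 0.034), a call that was lost without any 1 of 5 samples, with adjusted p of up to 0.11 without 393P_ZEB1 replicate 2. Id3 had a log2 fold change of 0.49 (edgeR adjusted p = 0.37), which was 1.14 without 393P_vector replicate 3 (edgeR adjusted p = 0.00025).

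**Figure D4:**
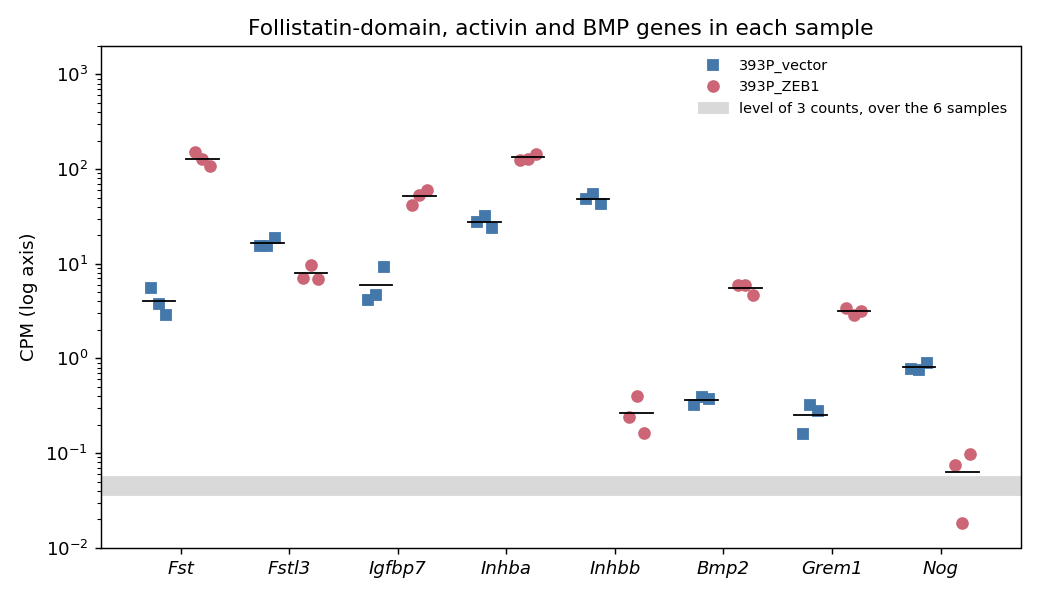
Levels in CPM, on a log axis, of Fst, Fstl3, Igfbp7, Inhba, Inhbb, Bmp2, Grem1 and Nog, with 1 point per sample (n = 3 per group), a bar at each group mean and a grey band at the level of 3 counts. Inhbb falls from 48.1 to 0.268 CPM and Nog from 0.805 to 0.0637 CPM, while Fst, Igfbp7, Bmp2, Grem1 and Inhba are higher in all 393P_ZEB1 samples.

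Proteases that cleave or are induced by family members made up the last list, in which 5 of 7 were tested, 1 rose and 2 fell, with a median of -0.16 (2 rose and 3 fell without 393P_vector replicate 3). Mmp3 (stromelysin-1) rose by 3.45, from 0.261 to 2.88 CPM (edgeR adjusted p = 2.0e-05). Mmp15, a membrane-type metalloprotease gene, fell by 2.19 (edgeR adjusted p = 0.003), and the aggrecanase gene Adamts4 fell by 1.84 (edgeR adjusted p = 0.00065).

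**Figure D5:**
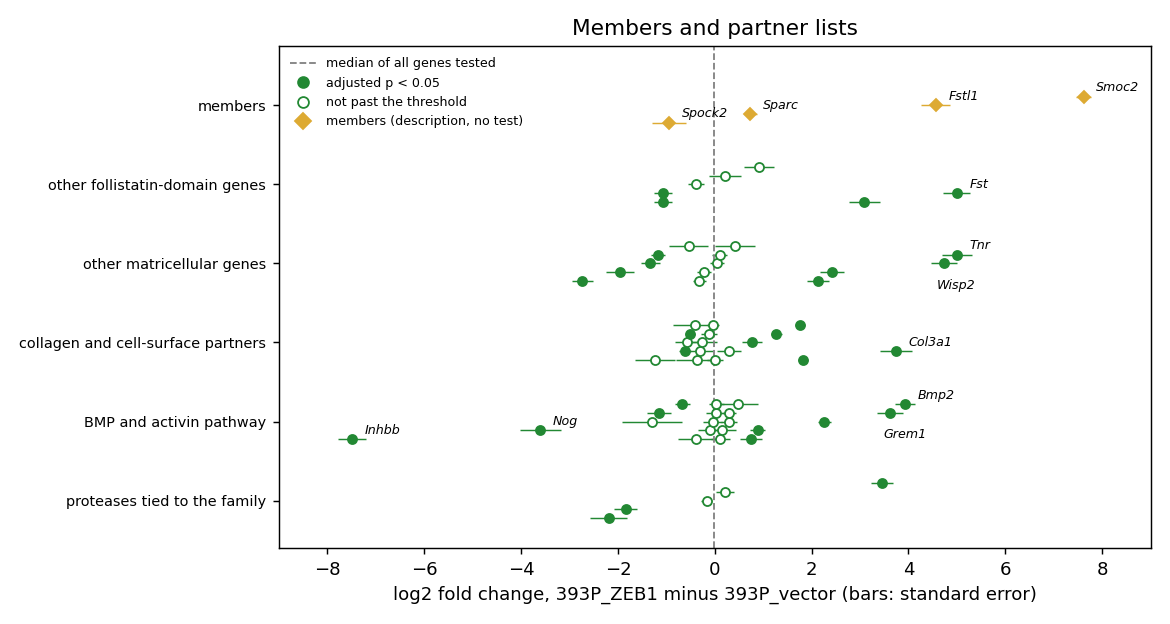
Log2 fold change, 393P_ZEB1 minus 393P_vector, with SE bars for the 4 fitted members (diamonds) and the tested genes of the 5 lists (circles, filled where the adjusted p is below 0.05), and a dashed line at the median of all tested genes. Genes lie on both sides of the line in every list, from Inhbb at -7.49 to Fst at 5.0.

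Because SPARC, SMOC2 and FSTL1 are also products of fibroblasts and vascular cells, markers of these cells were read beside the members. The summed CPM of 8 fibroblast markers ranged from 21.9 to 25.2 in 393P_vector and from 2.72 to 3.55 in 393P_ZEB1. Pdpn, singled out after its values were seen, made up 15.7 to 20.7 CPM of the sum in 393P_vector, and the other 7 markers summed to between 4.57 and 6.50 CPM in 393P_vector and between 2.59 and 3.44 CPM in 393P_ZEB1. Pdgfrb alone rose (1.18, edgeR adjusted p = 0.015, and 0.058 without 393P_ZEB1 replicate 1), at 0.467 CPM in 393P_ZEB1, and Pdgfra, Col6a3 and Pdpn fell. The call on Col6a3 was lost without any 1 of 5 samples, with adjusted p of up to 0.11 without 393P_ZEB1 replicate 2. Lum and Fap did not exceed 3 counts in any sample, and Dcn did not exceed 4. The summed CPM of 7 endothelial and leukocyte markers was between 3.71 and 5.75 in 393P_vector and between 1.66 and 2.21 in 393P_ZEB1, with 0 higher and 1, Kdr, lower (3 lower without 393P_vector replicate 2). Of 7 epithelial and lung markers, 5 were tested, 4 fell and 0 rose.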

How the data were processed

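For each of the 6 samples, the authors deposited unnormalized read counts for 24214 RefSeq features, with GRCm38 coordinates and exon length, and an RPKM (count scaled by exon length and total reads). The authors also deposited the number of exons with more than 10 reads, used here as a description. Deposited RPKM values were not used further. Libraries were made from 2 ug of total RNA with a SOLiD kit. The aligner and counter are not given in the sources used here, nor is whether strand was used.

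Samples were grouped by their labels. Counts were analyzed in R 4.3.3 with edgeR 4.0.16 (TMM, filterByExpr with a minimum count of 10, robust quasi-likelihood test, Benjamini-Hochberg adjustment over 13892 genes, threshold 0.05, BCV 0.184). A gene could pass the filter through the samples of 1 group alone. The study's methods state no test for these data. CPM and RPKM in the text use TMM-normalized library sizes. RPKM shares, profile likeness and sequence searches used Python 3.11.15, with pandas 2.3.3, NumPy 2.4.6 and matplotlib 3.10.9. Alternatives were DESeq2 size factors, the DESeq2 1.42.0 Wald test, no filter, a replicate block, omission of each sample or of the 10 genes with the most counts, counts in place of RPKM, a prior of 1 CPM and 5 neighbors per side.

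The members and lists were chosen with earlier results of these data known. Named were all 8 members, Zeb1, Cdh1 and Vim, up to 4 called genes per list with the largest absolute log2 fold change, defining markers at or near 0, the 3 tested genes on each side of Smoc2 and the 5 genes most like Smoc2. Other names are marked as chosen after their values were seen. Samples with equal replicate numbers were not treated as pairs in the main fit. Deviations from the group means correlated between -0.22 and 0.30 for equal numbers and between -0.20 and 0.24 for unequal numbers. With 3 samples per group, these ranges cannot show whether the samples were paired. A search of promoter windows is not reported here.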

Additional observations from a re-analysis of the deposited data

How the results depend on the processing

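The log2 fold changes of the 4 members that passed the filter on low counts kept their direction under every alternative tried. When 1 sample was left out, they ranged from 7.54 to 7.71 for Smoc2, from 0.63 to 0.80 for Sparc, from 4.29 to 4.90 for Fstl1 and from -1.15 to -0.73 for Spock2. The number of members past the threshold stayed at 3 on the higher side and ranged from 0 to 1 on the lower side, with 1 without 393P_vector replicate 3. Since the family was chosen on this contrast, nothing is read from these numbers. Genes of the 5 lists called lower ranged from 13 to 23, with the highest value without 393P_vector replicate 3, and those called higher from 15 to 21. Over all genes, between 1861 and 3700 were higher and between 1784 and 3776 lower, with 1784 lower without 393P_ZEB1 replicate 3. With the replicate block, the log2 fold changes were 7.63 for Smoc2, 0.74 for Sparc, 4.57 for Fstl1 and -0.94 for Spock2, and among the genes named the calls on Vim, Tcte2, LOC106740 and Col6a3 were lost (adjusted p of 0.0669, 0.0523, 0.11 and 0.0643). The block, DESeq2's size factors, its Wald test, no filter on low counts and omission of the 10 genes with the most counts gave between 2180 and 2823 higher and between 2256 and 2957 lower genes. LOC106740 also lost its call with no filter (adjusted p = 0.0934). Col1a1, not past the threshold in the main fit, was called lower with the block, with no filter and with the Wald test. Taken from counts, not per length, the share of Smoc2 was 0.181% in 393P_vector and 17.5% in 393P_ZEB1, and that of Sparc 99.47% and 81.8%. With a prior of 1 CPM, 3 of the 5 genes most like Smoc2 were shared, and with 5 neighbors per side, 33.75% were past the threshold. The cause of these differences was not tested. Depth limited Smoc1, Sparcl1, Spock1 and Spock3, each with at most 15 counts in a sample, to values without a fit in the main analysis. Their fits with no filter on low counts are not given.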
